A study of Homo sapiens with 20 samples.

Results

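The APOBEC3 genes encode cytidine deaminases that turn cytosine into uracil in single-stranded DNA. The 7 members, APOBEC3A, APOBEC3B, APOBEC3C, APOBEC3D, APOBEC3F, APOBEC3G and APOBEC3H, were found by their symbols among the 36076 genes of the expression table, and each had 1 row. Their mRNA was measured in 6 human lung cancer cell lines (A549, H1299, CL1-0, its more invasive subline CL1-5, H1792 and PC9), each as a Mock library and as a library of cells given 100 nM decitabine (DAC) for 72 hours and then kept drug-free for 3 days. DAC is a cytidine analogue that traps DNA methyltransferases and lowers DNA methylation. Accessible chromatin was mapped by Omni-ATAC-seq, a transposase assay, in A549, H1299, CL1-5 and PC9. Every line and treatment had 1 library, so the lines served as the replicates, and a value within a line had no replicate check.

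APOBEC3 enzymes act in the innate defence against retroviruses, retrotransposons and DNA viruses. APOBEC3A and APOBEC3B enter the nucleus and are known as sources of C-to-T mutations in lung and other cancers, while APOBEC3D, APOBEC3F, APOBEC3G and APOBEC3H are known for blocking retroviruses such as HIV in T cells. Interferon raises several members in myeloid cells and lymphocytes, whereas APOBEC3B in tumours is mostly tied to cell proliferation and to NF-κB signalling. For this reason APOBEC3B was compared with the 5 interferon-linked members APOBEC3A, APOBEC3D, APOBEC3F, APOBEC3G and APOBEC3H.

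All members lie head to tail on the plus strand of chromosome 22, in 151 kb at chr22:39348746-39500072 (GRCh37). They arose by duplication and still share sequence, so a short read can fit more than 1 of them. Of the 50-base windows along the APOBEC3A transcript, 21.2% also occurred in the annotated coding transcripts of APOBEC3B. In the same way, 18.0% of those of APOBEC3B occurred in APOBEC3A. APOBEC3G shared 10.4% of its windows with APOBEC3F, APOBEC3B shared 9.99% with APOBEC3D, and APOBEC3H shared none with any member. With 100-base windows, 13.8% of those of APOBEC3A occurred in APOBEC3B, and 11.7% the other way round. The longest coding run common to APOBEC3A and APOBEC3B was 194 bases long. It lay in exon 3 of APOBEC3A (chr22:39357392-39357585) and in exon 6 of APOBEC3B (chr22:39387337-39387530), with the same letters in both, and is shown as the longest coding stretch in which a read fits both genes. Capitals mark the codons of the histidine and the glutamate and of the pair of cysteines that form the zinc-binding active site.
APOBEC3A exon 3 and APOBEC3B exon 6: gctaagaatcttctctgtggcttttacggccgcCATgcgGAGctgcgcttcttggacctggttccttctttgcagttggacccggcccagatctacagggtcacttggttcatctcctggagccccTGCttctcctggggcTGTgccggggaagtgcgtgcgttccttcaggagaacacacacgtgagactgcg

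The 12 mRNA-seq libraries were of cells with lung epithelial character to differing degrees. The 6 epithelial markers (EPCAM, CDH1, KRT7, KRT8, KRT18 and KRT19) summed to between 0.986 and 3590 FPKM (reads scaled by transcript length and by library depth) in the Mock libraries, and to between 3.05 and 2230 FPKM in the DAC libraries. They were near absent in CL1-0, at 0.986 FPKM in Mock and 3.05 FPKM after DAC. The 10 leukocyte markers summed to 0.96 to 5.63 FPKM in Mock and 1.72 to 9.73 FPKM after DAC. Of their defining genes PTPRC was at most 0.0759 FPKM and listed at 0 in 4 libraries, while CD2 was listed at 0 in 10. Of the myeloid ones, CD14 reached 7.38 FPKM (A549 after DAC) and ITGAM 1.52 (H1299 after DAC), and LYZ was at 0.472 to 1.33 FPKM and at 0 in none. Reads on genes numbered 22234485 to 25303899 in 10 libraries and 52634234 and 59735913 in the H1299 libraries. The H1299 libraries stood apart also in that 81.9% and 85.5% of their low read numbers were even, against 39.2% to 41.5% elsewhere, so their reads were halved for the counting intervals given here. In bulk RNA, fewer expressing cells and less RNA per cell cannot be told apart.

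APOBEC3B and APOBEC3C were the most abundant members and APOBEC3H was close to undetected. In Mock cells the level was 23.6 ± 15.1 FPKM for APOBEC3B and 19.1 ± 12.5 FPKM for APOBEC3C (mean ± SD, n = 6). APOBEC3A (6.42 ± 2.26 FPKM), APOBEC3D (6.05 ± 2.72 FPKM) and APOBEC3F (5.29 ± 2.43 FPKM) followed, and then APOBEC3G (0.734 ± 0.715 FPKM) and APOBEC3H (0.134 ± 0.0798 FPKM). In this order, each pair of neighbours overlapped within 1 SD of their means except APOBEC3F and APOBEC3G, of which APOBEC3F was the higher in 6 of 6 lines. The leading member differed between lines. APOBEC3B led in Mock CL1-0, CL1-5 and PC9, with 59.3%, 41.3% and 42.4% of the summed FPKM of the 7 members, whereas APOBEC3C led in A549 and H1792 with 55.5% and 38.2%. APOBEC3D led in Mock H1299 with 27.7%, and APOBEC3A in H1299 after DAC with 69.0%. In the other 5 lines the same member led before and after DAC.

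**Figure D1:**
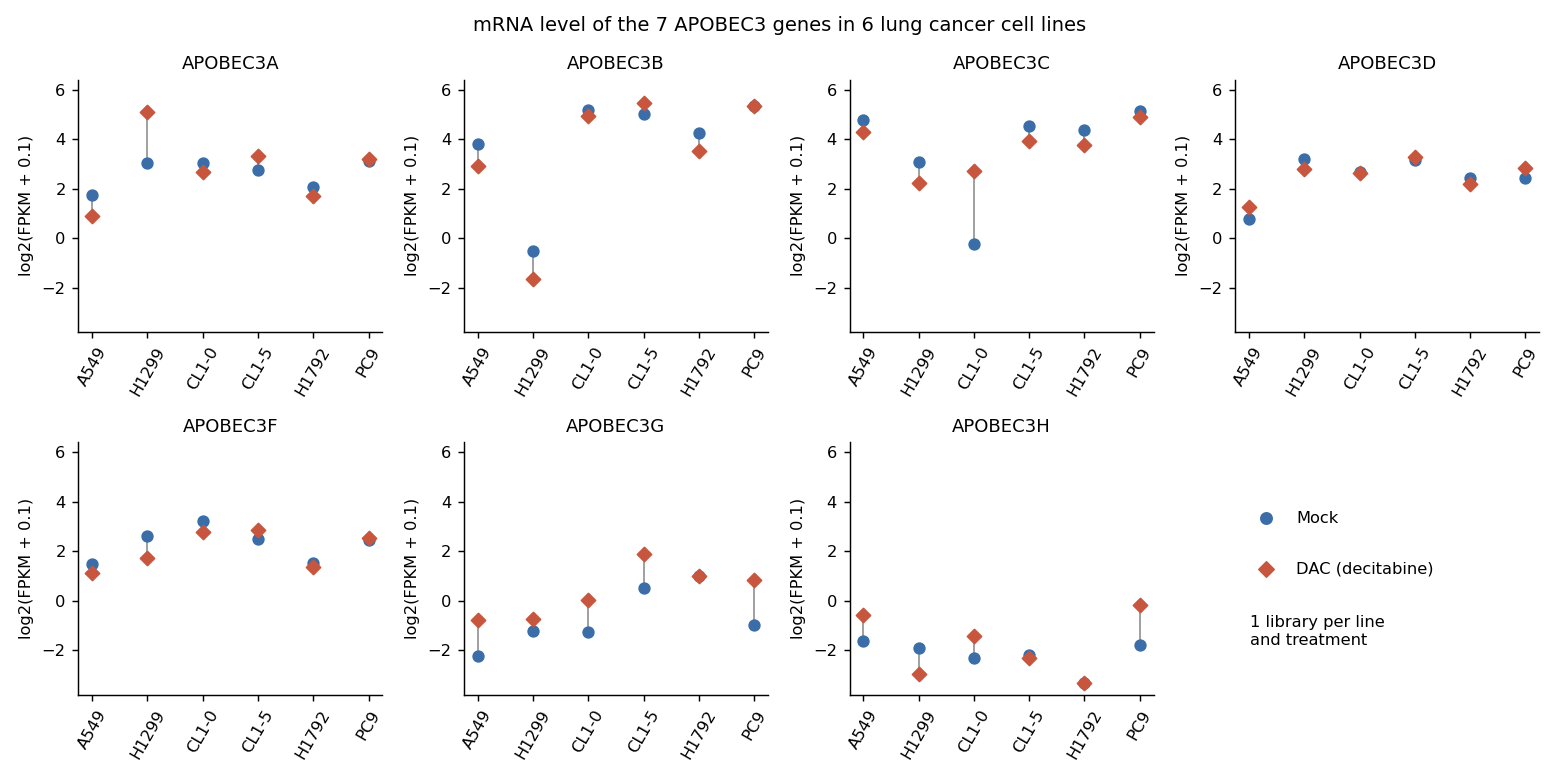
Level of each APOBEC3 gene in each line (x axis), as log2(FPKM + 0.1) on the y axis, with circles for Mock and diamonds for DAC, 1 library each and a grey line joining the treatments. APOBEC3B sits low in H1299 only, APOBEC3C sits low in Mock CL1-0 only, and most diamonds of APOBEC3G lie above their circles.

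Over the 6 lines, 0 of the 7 members passed the test in either direction. The fit (limma on log2(FPKM + 0.1), the cell line as a block, Benjamini-Hochberg adjustment over the 22814 genes that averaged 0.1 FPKM or more, threshold 0.05) called 0.232% of all genes higher after DAC and 0.0% lower. All 7 members entered it. At an unadjusted p under 0.05, 1 member (APOBEC3G) was higher and 0 were lower, where 8.92% and 2.92% of all genes were (2035 and 667 genes, but 1203 and 1465 after quantile normalization), and limma voom on the read numbers also called 0 members. The median log2 change was 0.06 over the members and 0.20 over the interferon-linked 5, beside 0.05 over all genes tested. With 6 lines the fit had limited reach: on simulated data it called 9 of 100 genes changed 2-fold and 52 of 100 changed 4-fold. Of the 4-fold changed genes with at least 1 FPKM in every library, as APOBEC3A, APOBEC3D and APOBEC3F had, it called 28 of 28. The simulated fold was the same in every line, and the same scatter setting was used for every gene. The reach for a change that differs between lines, or for a gene with more scatter, was thus not tested.

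**Figure D2:**
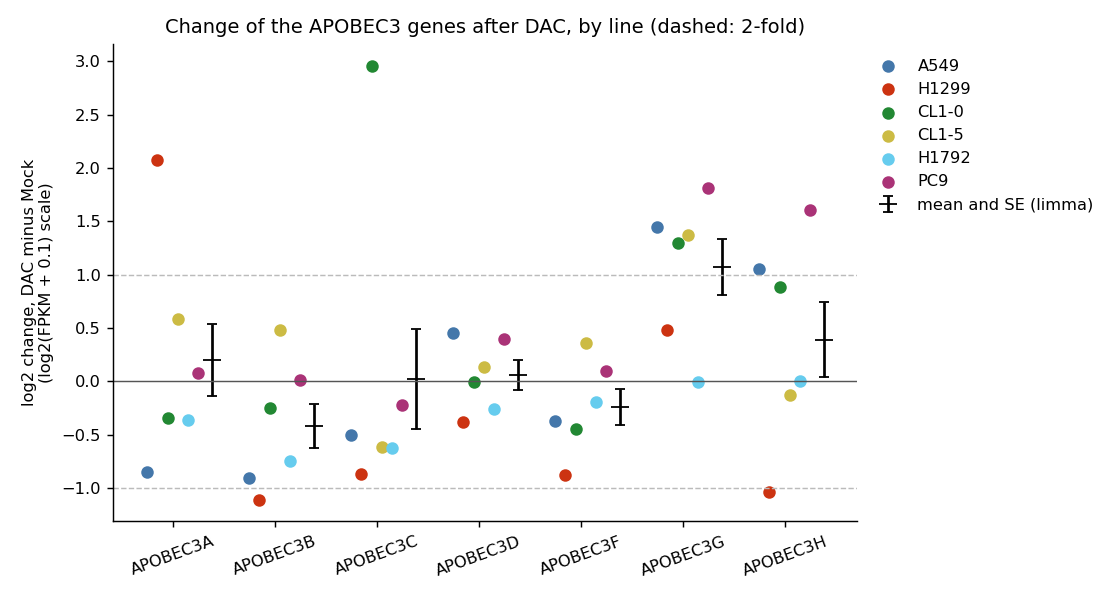
Log2 change of each APOBEC3 gene after DAC (y axis, log2(FPKM + 0.1) scale) by gene (x axis), with 1 coloured point per line, and the mean and its standard error from limma in black. The dashed lines mark 2-fold, and the highest points are APOBEC3C in CL1-0 (2.96) and APOBEC3A in H1299 (2.08).

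APOBEC3B, the nuclear deaminase most often linked to tumour mutation, was abundant in 5 lines. Its level went from 14.0 to 7.40 FPKM in A549, from 19.1 to 11.3 in H1792, from 36.0 to 30.2 in CL1-0, from 31.9 to 44.4 in CL1-5 and from 40.0 to 40.4 in PC9, Mock first. In H1299 it went from 0.59 to 0.22 FPKM, on 32 and 11 reads. H1299 thus lay far below every other line in both treatments, and the remaining lines spanned overlapping ranges before and after DAC. The ratio of DAC to Mock was lowest in H1299 (0.372, 95% interval 0.169 to 0.757, conditional on the reads and covering counting error only), A549 (0.529, 0.462 to 0.605) and H1792 (0.592, 0.530 to 0.660). It was 0.839 (0.784 to 0.899) in CL1-0, 1.01 (0.943 to 1.08) in PC9 and 1.39 (1.30 to 1.49) in CL1-5. The log2 change over the lines was -0.42 (SE 0.21, limma adjusted p = 0.476, lower in 4 of 6 lines).

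APOBEC3G, which packs into retroviral particles and mutates the viral DNA, came closest to a shared change. It went from 0.111 to 0.478 FPKM in A549, from 0.318 to 0.929 in CL1-0, from 1.33 to 3.59 in CL1-5 and from 0.406 to 1.68 in PC9. In H1299 it went from 0.333 to 0.507 FPKM and in H1792 from 1.91 to 1.89. Mock and DAC levels overlapped across lines, since Mock H1792 exceeded 5 of the 6 DAC libraries. Within lines, the ratio of DAC to Mock was 4.30 (95% interval 2.35 to 8.5) in A549, 4.14 (3.0 to 5.82) in PC9, 2.92 (2.05 to 4.23) in CL1-0 and 2.7 (2.29 to 3.21) in CL1-5. It was 1.52 (1.05 to 2.21) in H1299 and 0.994 (0.831 to 1.19) in H1792. The log2 change over the lines was 1.07 (SE 0.26, unadjusted p = 0.00295, limma adjusted p = 0.181, higher in 5 of 6 lines), the 373rd smallest p of the 22814. With a pseudocount of 1 it was 0.51, without a single line it ranged from 0.92 to 1.28, and its adjusted p stayed above the threshold under every alternative, from 0.139 to 1.00. APOBEC3G was at least 2-fold higher in 4 lines, as 2.28% of all tested genes were in 4 or more, and higher at all in 5 lines, as 15.9% were in 5 or more.

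APOBEC3A, the single-domain member that interferon raises in monocytes, differed most in H1299. It went from 8.08 to 34.4 FPKM there, on 545 and 2142 reads, which is a ratio of 4.25 (95% interval 3.87 to 4.68). In the other lines it went from 3.23 to 1.74 FPKM in A549, from 8.05 to 6.34 in CL1-0, from 6.65 to 10.0 in CL1-5, from 4.03 to 3.13 in H1792 and from 8.49 to 9.0 in PC9. The H1299 library after DAC was above all 11 other libraries, which overlapped between treatments. The log2 change over the lines was 0.20 (SE 0.34, limma adjusted p = 0.850), and it was -0.18 without H1299 (adjusted p = 0.783). The epithelial markers moved with it in H1299, where they summed to 112 FPKM in Mock and 672 FPKM after DAC and 5 of the 6 were at least 2-fold higher, and their part in the APOBEC3A value was not tested.

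Outside H1299, the APOBEC3A values followed those of APOBEC3B. The ratio of APOBEC3A to APOBEC3B FPKM was between 0.209 and 0.277 in the 10 libraries of the other 5 lines, with a median of 0.224, although APOBEC3B ranged from 7.40 to 44.4 FPKM in them. In H1299 the ratio was 13.7 in Mock and 157 after DAC. The 194-base run printed above, and the 21.2% of 50-base APOBEC3A windows found in APOBEC3B, stand beside this near-constant ratio. The part of shared reads in the APOBEC3A values of those 10 libraries was not tested. In H1299 the 2142 reads of APOBEC3A after DAC stood beside 11 of APOBEC3B.

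**Figure D3:**
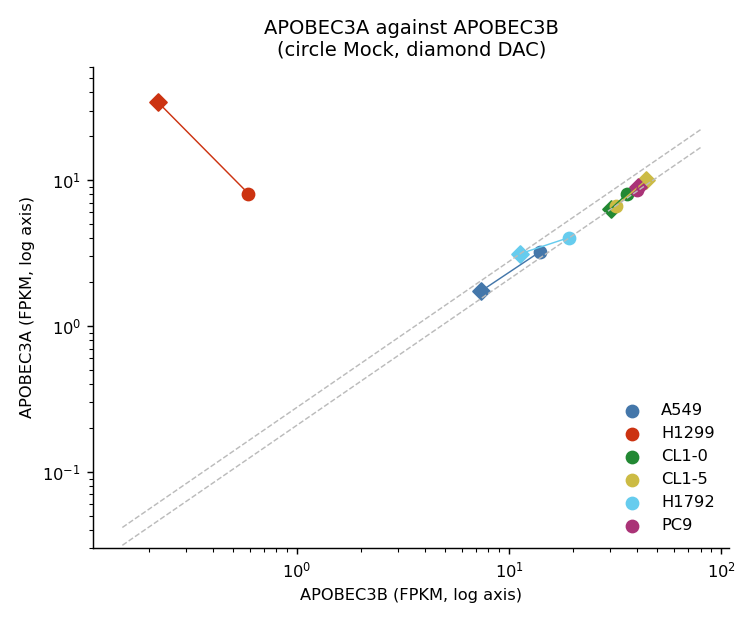
APOBEC3A (y axis) against APOBEC3B (x axis) in FPKM, both on log axes, with 1 colour per line, circles for Mock, diamonds for DAC and a line joining them. The dashed lines mark APOBEC3A to APOBEC3B ratios of 0.209 and 0.277, which hold 10 libraries, and the H1299 libraries lie far above them.

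APOBEC3C, a single-domain member with weak antiviral activity, had the largest log2 change of any member within a line. In CL1-0 it went from 0.737 to 6.42 FPKM, on 49 and 536 reads, a ratio of 8.72 (95% interval 6.50 to 11.9). The DAC level there still lay below the Mock level of every other line. In the other lines it went from 27.4 to 19.3 FPKM in A549, from 8.42 to 4.57 in H1299, from 22.9 to 14.9 in CL1-5, from 20.5 to 13.3 in H1792 and from 34.7 to 29.8 in PC9. APOBEC3C was thus lower in 5 of 5 lines other than CL1-0, with ratios between 0.543 and 0.859 whose intervals stayed under 1. Such a pattern of 2-fold or more higher in 1 line and lower in the other 5 was found for 49 of 22814 genes (0.215%). The pattern was taken from the values of APOBEC3C itself, so this share does not test how unusual the gene is. Over the 6 lines the log2 change was 0.02 (SE 0.47, limma adjusted p = 0.990). It was -0.57 without CL1-0 (adjusted p = 0.223), -0.09 with a pseudocount of 1 and -0.27 with voom on the read numbers.

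APOBEC3D and APOBEC3F, double-domain members that restrict HIV, stayed within 2-fold in every line. APOBEC3D ranged from 1.63 (A549) to 9.04 FPKM (H1299) in Mock, with a median of 5.77, and from 2.27 (A549) to 9.60 (CL1-5) after DAC, with a median of 6.54. APOBEC3F ranged from 2.72 (A549) to 9.32 FPKM (CL1-0) in Mock, with a median of 5.46, and from 2.09 (A549) to 7.18 (CL1-5) after DAC, with a median of 4.46. For both, Mock and DAC overlapped throughout. The log2 change was 0.06 (SE 0.14, limma adjusted p = 0.908) for APOBEC3D, with line values from -0.38 in H1299 to 0.45 in A549. It was -0.24 (SE 0.17, adjusted p = 0.603) for APOBEC3F, with line values from -0.88 in H1299 to 0.36 in CL1-5, and -0.11 without H1299.

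APOBEC3H, the single-domain antiviral member at the end of the cluster, had at most 23 reads in a library. It went from 0.224 to 0.569 FPKM in A549 (6 and 18 reads), from 0.192 to 0.794 in PC9 (5 and 23 reads) and from 0.102 to 0.270 in CL1-0 (3 and 10 reads). It went from 0.168 to 0.0303 FPKM in H1299 and from 0.118 to 0.0988 in CL1-5. In H1792 it had 0 reads in both libraries, with upper 95% counting limits of 0.119 FPKM in Mock and 0.123 FPKM after DAC. Only in PC9 did the 95% counting interval of the ratio exclude 1 (4.13, 1.54 to 13.9), and it was 0.966 to 7.82 in A549. The log2 change over the lines was 0.39 (SE 0.35, limma adjusted p = 0.684). It was 0.15 without PC9, 0.68 without H1299, 0.20 after quantile normalization and 0.16 with a pseudocount of 1, and the depth limits what can be said of this gene.

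Within single lines, 8 of the 42 combinations of line and member were at least 2-fold higher after DAC and 2 were at least 2-fold lower. In A549 2 of 7 members were 2-fold higher (APOBEC3G and APOBEC3H), where 15.5% of all tested genes were. In PC9 the same 2 were, against 10.3% of all genes, and in CL1-0 APOBEC3C and APOBEC3G were, against 7.60%. In CL1-5 APOBEC3G alone was higher, against 7.23%, and in H1299 APOBEC3A alone, against 8.04%. APOBEC3B and APOBEC3H were 2-fold lower in H1299, where 3.12% of all genes were. No member was in A549, CL1-0, CL1-5 or PC9, where 6.65%, 2.11%, 5.08% and 3.10% of all genes were. H1792 had 0 members past 2-fold in either direction, against 11.0% of all genes higher and 6.10% lower.

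The change of APOBEC3B was then set against that of each other member, line by line. The log2 change of APOBEC3B was below that of APOBEC3G in 6 of 6 lines, with a mean difference of -1.49 ± 0.60 on the log2 scale (SD, n = 6, exact two-sided sign-flip permutation p = 0.031). This is the smallest p that 6 lines can give, and after adjustment over the 6 pairs it was 0.188, so no pair passed. The difference from APOBEC3G was lowest in A549 (-2.36) and highest in H1792 (-0.74). It was negative under every alternative, from -0.79 with a pseudocount of 1 to -1.73 with one of 0.01. The mean difference was -0.82 ± 0.96 from APOBEC3H and -0.48 ± 0.56 from APOBEC3D, with APOBEC3B the lower in 5 of 6 lines each (exact sign-flip p = 0.0938, adjusted 0.188). It was -0.62 ± 1.27 from APOBEC3A (exact sign-flip p = 0.13, adjusted 0.188), of which H1299 alone gave -3.19, and without H1299 it was -0.11. The difference was -0.18 ± 0.32 from APOBEC3F (exact sign-flip p = 0.281, adjusted 0.338) and -0.44 ± 1.46 from APOBEC3C (exact sign-flip p = 0.594, adjusted 0.594), which turned to 0.11 without CL1-0. APOBEC3B is a term of all 6 differences, so they are not independent of each other.

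Interferon-stimulated genes had larger changes than the members in their median. Of 25 listed genes, 1 passed the test, BST2, a membrane tether of budding viruses (log2 change 4.46, SE 0.39, limma adjusted p = 0.00488, higher in 6 of 6 lines). The median log2 change of the 25 was 1.34, beside 0.05 for all tested genes. At an unadjusted limma p under 0.05, 16 were higher, as 8.92% of all tested genes were. The median by line was 3.04 in CL1-5, 2.65 in A549, 1.12 in H1299, 0.41 in PC9, 0.25 in H1792 and 0.00 in CL1-0. APOBEC3G did not follow this order. Its log2 change was highest in PC9 (1.81) and was 1.30 in CL1-0, where the interferon-stimulated median was 0.00, while it was 0.48 in H1299. In CL1-5, where 24 of the 25 interferon-stimulated genes were at least 2-fold higher, APOBEC3G was the only member of the 7 that was. Over the 6 lines, the changes of APOBEC3G and of the interferon-stimulated median had a Pearson's r of 0.30 and a Spearman's rho of 0.37, and those of APOBEC3B and this median an r of 0.19 and a rho of 0.09. Without CL1-5 and A549, the lines farthest out in the median, r was -0.26 for APOBEC3G and -0.67 for APOBEC3B. These values describe 6 points that share their library with the list, and 28 such relations were computed.

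The receptors and kinases of the interferon pathway differed little. Of 11 genes 0 passed the test, with a median log2 change of 0.24, and the lowest was IFNAR2, a receptor chain (-0.09, SE 0.15, limma adjusted p = 0.842). Of 14 genes that restrict retroviruses, 3 of them also among the interferon-stimulated ones, 1 passed, again BST2, and the median was 0.53. Among them the lowest was MOV10, an RNA helicase (0.01, SE 0.15, adjusted p = 0.985).

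The cell cycle list, with which APOBEC3B is known to vary in tumours, had 0 of 24 genes past the test and a median log2 change of -0.28. CCNA2, an S-phase cyclin, was lowest (-0.41, SE 0.27, limma adjusted p = 0.572) and AURKA, a mitotic kinase, highest (-0.05, SE 0.18, adjusted p = 0.940). By line, the median was -1.04 in H1792, -0.61 in A549, -0.46 in PC9, -0.17 in CL1-0, 0.28 in CL1-5 and 0.41 in H1299. APOBEC3B was lower in H1792 (-0.75) and A549 (-0.91) and higher in CL1-5 (0.48), as the list median was, but in PC9 it was at 0.01 beside a list median of -0.46, and in H1299 at -1.11 while 24 of 24 listed genes were above 0. The r over the 6 lines was 0.23 and rho 0.03, and r was 0.83 over the 4 lines left without H1792 and H1299. For APOBEC3A r was 0.78 and rho 0.89, also among the relations counted above, and r was 0.81 over the same 4 lines. Outside H1299 its values followed those of APOBEC3B, and the part of shared reads in them was not tested.

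**Figure D4:**
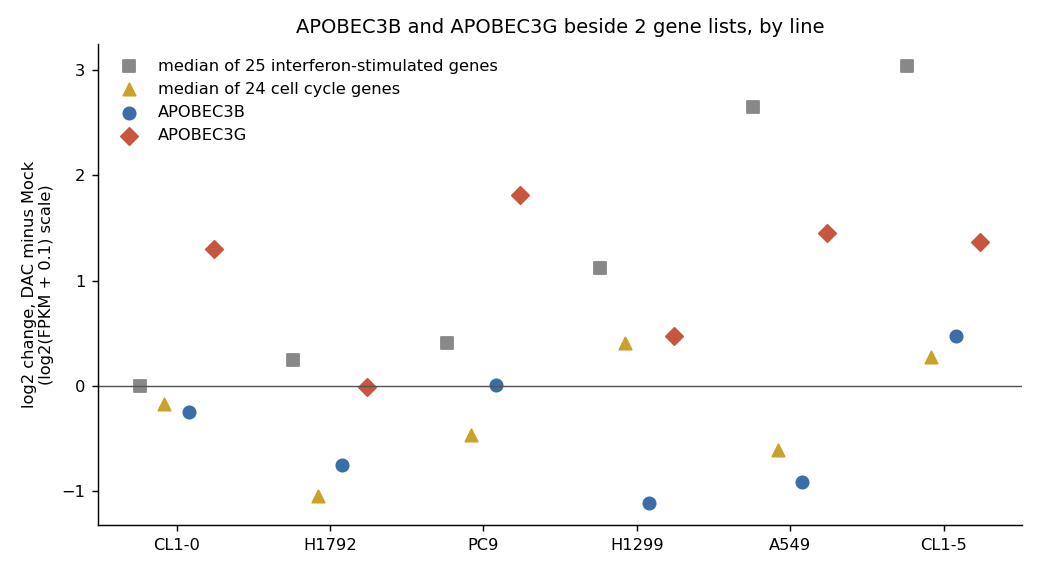
Log2 change after DAC (y axis, log2(FPKM + 0.1) scale) in each line (x axis, ordered by the interferon-stimulated median), for the median of 25 interferon-stimulated genes, the median of 24 cell cycle genes, APOBEC3B and APOBEC3G, 1 value each. APOBEC3G lies above APOBEC3B in 6 of 6 lines, and its height does not follow the grey squares, which run from 0.00 in CL1-0 to 3.04 in CL1-5.

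In the remaining lists 0 genes passed the test. Of 10 genes for NF-κB signalling, a known route to APOBEC3B induction, 4 were higher and 1 lower at an unadjusted limma p under 0.05. Of all tested genes, 8.92% were higher and 2.92% lower at this cut. The median of the 10 was 0.30, beside 0.05 for all tested genes. BIRC3, an NF-κB target that blocks apoptosis, was highest (0.97, SE 0.25, limma adjusted p = 0.207), and PRKCA, a kinase upstream of the pathway, lowest (-0.43, SE 0.16, adjusted p = 0.354). Over the 6 lines the change of APOBEC3B and this median had an r of -0.49 and a rho of -0.60, and those of APOBEC3C and this median an r of -0.92 and a rho of -0.89. Without CL1-0 and H1792, the lines farthest out in this median, r was -0.88 for APOBEC3B and -0.81 for APOBEC3C. Of 15 p53 targets the median was 0.16, with CDKN1A, a cell cycle inhibitor, highest (0.81, SE 0.17, adjusted p = 0.115) and XPC, a DNA repair factor, lowest (-0.30, SE 0.19, adjusted p = 0.557). The change of APOBEC3A and the p53 target median had an r of -0.82 and a rho of -0.94, a description of the same kind as those above. Without A549 and H1299 this r was -0.68. Of 10 genes that repair the uracil left by deaminases the median was -0.05, and 0 were higher and 2 lower at the same unadjusted cut. TDG, a DNA glycosylase, was highest (0.20, SE 0.18, adjusted p = 0.686), and XRCC1, a scaffold of the repair, lowest (-0.49, SE 0.13, adjusted p = 0.214, lower in 6 of 6 lines). The relatives APOBEC1, APOBEC2 and APOBEC4, which lie outside the cluster, were each under 1 FPKM in every library and too low to be tested. Of 5 leukocyte markers tested, NKG7 was lowest (0.06, SE 0.32, adjusted p = 0.957). Of the 6 epithelial markers, EPCAM was highest (1.38, SE 0.52, adjusted p = 0.360) and CDH1 lowest (0.26, SE 0.19, adjusted p = 0.631).

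The genes beside the cluster also did not pass. Within 200 kb, NPTXR, a receptor of neuronal pentraxins, was higher in 6 of 6 lines (log2 change 0.60, SE 0.15, limma adjusted p = 0.207), and DNAL4, a dynein light chain, lower in 5 of 6 (-0.63, SE 0.22, adjusted p = 0.336). PDGFB, a growth factor, had a log2 change of 0.55 (adjusted p = 0.500), and the Polycomb proteins CBX6 and CBX7 had -0.38 (adjusted p = 0.455) and -0.20 (adjusted p = 0.722). SUN2, of the nuclear envelope, was at -0.03 (adjusted p = 0.936). APOBEC3B-AS1, which overlaps APOBEC3B on the other strand, had at most 1 read in any library. Of the RNAs without a symbol, ENSG00000225720, a pseudogene inside the cluster, had a log2 change of 0.43 (adjusted p = 0.648) and ENSG00000279833 one of 0.09 (adjusted p = 0.911). ENSG00000235209 and ENSG00000224794 were too low to be tested, with at most 0.213 and 0.108 FPKM.

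The genes whose levels most resembled those of a member differed from member to member. Among the 13363 genes that averaged 1 FPKM or more, over 12 libraries, the highest Pearson's r of log2(FPKM + 0.1) with APOBEC3B were those of ENSG00000240731 and ENSG00000271936 (both 0.975) and SNORD83A (0.971), and they were 0.818, 0.826 and 0.796 without the H1299 libraries, an alternative chosen after seeing the data. For APOBEC3G they were TRAPPC6B (0.889), TMED5 (0.883) and OTULINL (0.877). For APOBEC3A they were ZNF101 (0.927), ZPR1 (0.922) and CDC25A (0.916), and for APOBEC3C OSBPL7 (0.949), PKP3 (0.938) and S100A16 (0.917). For APOBEC3D they were ZNF528 (0.953), IPO13 (0.953) and ZNF136 (0.947), and for APOBEC3F they included MED8 (0.943) and TOE1 (0.923). The 12 points are 6 pairs of libraries from the same line, so the r values mostly reflect differences between lines, and none of the 6 members searched was among the 3 genes of another. APOBEC3H averaged under 1 FPKM and was not searched.

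Accessibility was read from broad peaks called in each library. Before the values, a limit of the libraries has to be given. By mRNA, 156 genes were active in PC9 but not in CL1-5, and the share of them with a peak at the promoter in Mock was 84.6% under the label CL1-5 but 47.4% under the label PC9. For the 95 genes active the other way round, these shares were 52.6% and 73.7%. The Mock ATAC libraries of both lines thus went against their labels. The DAC libraries were not checked in this way. Whether Mock and DAC under each of these labels came from the same line was not tested. All of them are called labelled CL1-5 and labelled PC9 here.

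Promoter peaks, within 3000 bp of the transcription start site (TSS), were present at most members in 3 lines and at fewer in H1299. In A549 6 members had one in Mock and 7 after DAC, under the label PC9 6 and 7, and under the label CL1-5 7 and 7. In H1299 3 members had one in both, APOBEC3C, APOBEC3D and APOBEC3F. APOBEC3F had the strongest of the member peaks in every library, with a fold enrichment over background of 7.33 and 6.59 in A549 (Mock first), 5.35 and 6.2 in H1299, 6.75 and 6.11 under the label CL1-5, and 8.39 and 6.70 under the label PC9. Its mRNA was below that of APOBEC3B and that of APOBEC3C in 5 of 6 Mock libraries each. The gap to APOBEC3C was small in H1299 (5.96 against 8.42 FPKM). APOBEC3F was above APOBEC3B in Mock H1299 (5.96 against 0.59 FPKM) and above APOBEC3C in Mock CL1-0 (9.32 against 0.737 FPKM).

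APOBEC3B and APOBEC3A in H1299 had contrasting mRNA and the same lack of a peak. H1299 had no listed peak at the APOBEC3B promoter in either library, beside 0.59 and 0.22 FPKM, while the strongest one was 6.45 and 5.08 in A549, 4.71 and 3.75 under the label CL1-5, and 5.95 and 5.35 under the label PC9. The Mock value labelled CL1-5 belonged to a peak 2630 bp downstream of the TSS, and the peak at the TSS had 3.95. H1299 also had no listed peak at APOBEC3A, beside 8.08 and 34.4 FPKM. In the other libraries the APOBEC3A peak was weak, from 2.26 to 3.45. A peak that is not listed fell under the caller's threshold, and the depth of each ATAC library is unknown.

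APOBEC3G and APOBEC3H, the least abundant members, had promoter peaks in 3 of the 4 lines after DAC. The APOBEC3G peak had a fold enrichment of 4.90 in Mock A549 and 3.90 after DAC there, 6.34 and 4.98 under the label PC9, and 3.12 and 3.29 under the label CL1-5. The A549 peak was 205 bp wide and did not cover the TSS in Mock, and was 574 bp wide and covered it after DAC. APOBEC3H had no listed promoter peak in Mock A549 or in the Mock library labelled PC9, and had one after DAC in both, with 3.49 and 3.46. In A549 this peak began 261 bp downstream of the TSS, and in the library labelled PC9 it covered the TSS. In the libraries labelled CL1-5 the APOBEC3H peak was present before and after DAC, at 3.71 and 2.82. APOBEC3H mRNA was at 0.569 FPKM after DAC in A549 and at 0.794 in PC9, the highest levels among all libraries. The Mock library labelled PC9 went with CL1-5 mRNA, and in CL1-5 APOBEC3H was at 0.118 FPKM in Mock and 0.0988 after DAC.

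The promoter of APOBEC3H is shown because, under the label PC9, a peak covering its TSS was listed after DAC but not in Mock. The A549 peak lies outside the window shown. It was the only one of the 7 with an entry in the RefSeq promoter table (GRCh38.p14, chr22:39096994-39097293, plus strand, 300 bases around the TSS). Capitals mark its only CG, the letters at which DNA methylation is set.
APOBEC3H promoter: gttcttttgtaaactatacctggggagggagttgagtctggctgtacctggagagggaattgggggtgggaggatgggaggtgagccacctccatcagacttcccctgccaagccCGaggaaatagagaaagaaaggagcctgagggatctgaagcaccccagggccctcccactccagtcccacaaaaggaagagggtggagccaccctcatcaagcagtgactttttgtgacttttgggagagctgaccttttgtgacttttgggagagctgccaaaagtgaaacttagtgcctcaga
It held 1 CG, where the median of 35116 promoters of the same length was 14 and 11.0% had as few. The core of the interferon-stimulated response element, searched as GAAANNGAA on both strands, was not in this window and was in 8.11% of all promoters. The gamma-activated site motif TTCNNNGAA, which reads the same on both strands, was also not in it and was in 7.66%. Only exact matches of both motifs were counted, and near matches were not searched for.

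Over the whole cluster, the number of peaks went from 10 to 14 in A549, from 5 to 5 in H1299, from 18 to 20 under the label CL1-5, and from 11 to 17 under the label PC9. The mean change was 3.0 ± 2.58 peaks (SD, n = 4, p = 0.25 in an exact sign-flip permutation test, two-sided). With H1299 at a change of 0, this was the smallest p the test could give. The number of peaks in the whole library went up as well, from 58734 to 78199 in A549, 45354 to 63541 in H1299, 85710 to 97584 under the label CL1-5, and 71204 to 91061 under the label PC9. Its part in the cluster values was not tested. The bases covered by cluster peaks went from 5564 to 8542 in A549 and from 3207 to 4110 in H1299. They went from 13423 to 13463 under the label CL1-5, and from 9461 to 13714 under the label PC9, while the median fold enrichment of the cluster peaks went down in 4 of 4 pairs, for example from 5.31 to 3.02 in the latter.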

How the data were processed

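mRNA-seq (12 libraries) and Omni-ATAC-seq (8 libraries) of Mock- and DAC-treated cells were analysed, grouped by line and treatment from their labels. For mRNA-seq, the authors trimmed reads from a stranded kit, aligned them to hg19 (RSEM with bowtie2 in the paper, TopHat2 2.1.1 in the submitters' processing notes), counted them on GENCODE release 25 and deposited FPKM values from DESeq2 1.24.0, with a mean normalized signal per gene. How reads fitting several genes were assigned is not given in the sources used here. Columns with the authors' own fold changes, errors and p-values were not used. For Omni-ATAC-seq, the authors aligned reads with BWA 0.7.17-r1188 to hg19, removed duplicates and called broad peaks per library with MACS2 2.2.5. The deposited lists give a fold enrichment ratio and a −log10 q-value per peak. The number of value columns without a sample was 0.

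Whole reads were recovered from FPKM and the mean signal (100% whole within 0.05 of a read). H1299 reads were halved for intervals, which cover counting error only. Log2(FPKM + 0.1) was fitted with limma 3.58.1 (R 4.3.3) with the line as a block. The block is part of the design because Mock and DAC came from the same line, and centred on each treatment the levels of a line's pair correlated at 0.700 to 0.903, against -0.315 to 0.164 for pairs of different lines. CL1-0 and CL1-5 are related lines. Pair differences and peak numbers were tested with exact sign-flip permutations (Python 3.11.15, numpy 2.4.6, scipy 1.17.1, pandas 2.3.3, matplotlib 3.10.9). The simulated data had the same fold in every line and the same scatter setting for every gene. On them the fit called 28 of 28 genes changed 4-fold that were at 1 FPKM or more in every library. Gene positions, transcripts and TSS came from GENCODE 44 on GRCh37. Named genes are the 7 members, the members of each list past the threshold or otherwise its highest and lowest tested, the 3 most similar genes per member with a mean of at least 1 FPKM, annotated genes within 200 kb and genes overlapping a member. Some genes that this rule names are left out of the text. The members and lists were chosen with earlier results of these data known. Alternatives were other pseudocounts, filters, scalings, models, windows and thresholds, and leaving out each line.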

Additional observations from a re-analysis of the deposited data

Results flagged for a closer look

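APOBEC3A in H1299 after DAC was at 34.4 FPKM, far from the other 5 DAC libraries, of which the next highest was at 10.0. The gap was 0.746 of the whole range, above Dixon's critical value of 0.625 for 6 values. The log2 change of APOBEC3C in CL1-0 was 2.96, while the next highest line was at -0.219, a gap of 0.831 of the range. These were 2 of 22 groups of values looked at in this way, and chance flags about 1 in 20.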

How the results depend on the processing

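The number of genes higher after DAC, 53, varied with the settings. It was 124 with a pseudocount of 0.01, 3 with one of 1, 15 with no filter on low values, 88 after rescaling to a common sum, 30 with quantile normalization, 268 with voom on the recovered reads, and, leaving out 1 line, 15 (A549), 30 (H1299), 34 (CL1-0), 24 (CL1-5), 27 (H1792) or 34 (PC9). With no replicate block, that is without the pairing of libraries by line, it was 15. The number of lower genes was 2 with voom and 0 otherwise. Quantile normalization shifted the median log2 change of all genes by -0.105. No member passed under any of these settings. APOBEC3A turned to -0.18 without H1299. APOBEC3C turned to -0.09 with a pseudocount of 1, -0.27 with voom and -0.57 without CL1-0. APOBEC3D, at 0.06, turned to 0.00 or just under with voom, to -0.02 without A549 and to -0.01 without PC9. The other members kept their direction, and the unblocked fit turned none. APOBEC3B minus APOBEC3C lay between -0.75 and 0.11 without a single line. With a pseudocount of 1, 2 combinations of line and member were 2-fold higher, in place of 8, and 0 were lower, in place of 2. The net gain in members with a promoter peak, summed over the 4 lines, was 2, and 1 at a −log10 q of at least 2, where APOBEC3H gained one in both lines but APOBEC3A in A549 after DAC lost its own. Exchanging the libraries labelled CL1-5 and PC9 left the mean change in cluster peaks at 3.0, by construction. Why these values moved was not tested, beyond the fewer lines or genes in some settings. Depth limits APOBEC3H, and APOBEC3B in H1299.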
